A study of Mus musculus with 2 samples.

Results

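The LIM-domain genes described here belong to 3 families, FHL (Fhl1, Fhl2, Fhl3), CSRP (Csrp1, Csrp2, Csrp3) and PDLIM (Pdlim1, Pdlim3, Pdlim5, Pdlim7). They were taken as the probe sets that the platform annotation gives to 1 of these 10 gene symbols alone, which found 10 of 10 genes among 19938 and 11 probe sets among 35557. The study profiled total RNA from the mandible of mouse fetuses at E18.5 (embryonic day) on Affymetrix arrays, which report the brightness of short probes, summarised into 1 value per probe set. One group lacked Myf5 and MyoD on a BALB/c background (DKO, double knockout), and the other was wild type on BALB/c (WT), with 1 array each. Myf5 and MyoD are transcription factors that direct cells into the skeletal muscle lineage, and the labels name both genes as null without naming a tissue-restricted deletion. The comparison bears on how skeletal muscle contributes to the growing mandible. The sources used here do not state how many embryos were pooled for each RNA sample. Because each genotype has a single array, the genotypes could not be tested against each other, every difference compares these arrays alone, and no p-values are given.

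A LIM domain is a double zinc finger that binds other proteins rather than DNA. FHL proteins consist almost wholly of LIM domains, CSRP proteins (cysteine- and glycine-rich proteins) carry a pair of them, and PDLIM proteins join a PDZ domain, which docks on alpha-actinin, to LIM domains at the other end. In striated muscle several of these proteins sit at the Z-disc, where actin filaments of neighbouring sarcomeres are anchored, while their paralogs in other cells lie on stress fibres and cell adhesions. From textbook roles, Fhl1, Fhl3, Csrp3 and Pdlim3 were classed as muscle-restricted, meaning known mainly from striated muscle. Fhl2, Csrp1, Csrp2, Pdlim1, Pdlim5 and Pdlim7 were classed as broadly expressed, meaning known from other tissues as well. The classes are not strict, since Fhl2 and Pdlim5 are also made in heart, which is striated muscle. They were chosen with earlier results of these data known.

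The start regions of 4 members are shown because Myf5 and MyoD bind the E-box (CANNTG) and because SRF, the serum response factor, binds the CArG box of many muscle genes. Csrp3, Pdlim3 and Fhl1 were the members with the lowest DKO signal relative to WT, and Fhl2 was the single member with more signal in DKO. Each sequence runs 5′ to 3′ on the coding strand from 250 bases before a RefSeq start to 50 bases after it, in the assembly GRCm38.p6. Csrp3, Fhl1 and Fhl2 have a further start each, and the most upstream is shown. Capitals mark E-boxes and CArG boxes.
Csrp3, chr7:48848002-48848301 (- strand): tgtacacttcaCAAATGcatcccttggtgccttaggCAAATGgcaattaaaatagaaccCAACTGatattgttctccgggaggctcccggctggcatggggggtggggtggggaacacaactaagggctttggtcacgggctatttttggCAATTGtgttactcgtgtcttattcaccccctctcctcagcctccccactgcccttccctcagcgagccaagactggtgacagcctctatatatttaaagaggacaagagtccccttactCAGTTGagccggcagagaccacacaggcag
Pdlim3, chr8:45885237-45885536 (+ strand): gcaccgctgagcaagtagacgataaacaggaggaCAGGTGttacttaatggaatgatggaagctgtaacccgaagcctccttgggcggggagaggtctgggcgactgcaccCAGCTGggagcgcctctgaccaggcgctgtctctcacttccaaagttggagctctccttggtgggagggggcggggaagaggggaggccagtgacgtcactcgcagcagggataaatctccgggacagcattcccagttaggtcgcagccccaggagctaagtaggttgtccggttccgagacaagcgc
Fhl1, chrX:56779433-56779732 (+ strand): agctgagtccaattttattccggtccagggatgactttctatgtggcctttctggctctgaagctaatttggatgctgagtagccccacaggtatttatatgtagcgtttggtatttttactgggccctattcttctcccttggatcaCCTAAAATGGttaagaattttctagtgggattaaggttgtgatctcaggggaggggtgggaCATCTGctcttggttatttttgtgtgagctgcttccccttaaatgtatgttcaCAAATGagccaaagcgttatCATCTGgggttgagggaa
Fhl2, chr1:43196712-43197011 (- strand): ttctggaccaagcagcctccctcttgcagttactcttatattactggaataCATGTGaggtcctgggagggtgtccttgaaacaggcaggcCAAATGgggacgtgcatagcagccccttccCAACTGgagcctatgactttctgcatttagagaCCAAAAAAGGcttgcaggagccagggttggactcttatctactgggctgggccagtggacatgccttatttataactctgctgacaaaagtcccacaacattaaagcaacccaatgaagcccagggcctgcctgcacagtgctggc

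The Csrp3 window held 5 E-boxes, the Pdlim3 window 2, the Fhl1 window 3 and the Fhl2 window 3. A CArG box began 102 bases before the Fhl1 start shown and another 96 bases before the Fhl2 start shown, and neither overlapped an E-box. RefSeq windows were at hand for 9 of the 10 genes, 14 windows in all, since some genes have several starts. Of these, 10 held an E-box, where 72.3% of all 32851 windows of the same length did, searched on both strands. A CArG box was found in 3 of the 14, in the Fhl1 window shown and in both windows of Fhl2, and in 1.63% of all windows. Fhl1 window 2, which is not shown, held 0. The M-CAT motif (CATTCC), bound by TEAD factors, was found in 1 of the 14, that of Pdlim3, and in 14.7% of all windows. Whether any of these motifs bears on the differences between the arrays was not tested. A match describes letters and is not a measured binding site.

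In DKO mandible, 4 of the 10 genes had at least 2-fold less signal than in WT, 0 had at least 2-fold more, and 6 lay in between. Over all genes measured, 2.73% were at least 2-fold lower in DKO and 0.510% at least 2-fold higher. The 4 were Pdlim3, Csrp3, Fhl1 and Pdlim5. Of any size, 9 differences were negative and 1 was positive, whereas the median over all 10393 measured genes was 0.10 on the log2 scale, with 3344 negative and 6963 positive. The median of the 10 was -0.80. At 1.5-fold, 7 of the 10 were lower in DKO, against 5.11% of all measured genes, and at 3-fold 3 were, against 1.55%. Here and below, a difference is DKO minus WT of the log2 signal after values under a floor were raised to it (6.19 on the DKO array, 6.18 on the WT array), and a gene is measured when it lies above the floor on at least 1 array. All 10 genes were measured and 9 lay above the floor on both arrays. As a yardstick of probe noise, the gap between the differences of 2 probe sets of 1 gene had an SD of 0.23 over 532 genes. It leaves out the variation between animals.

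**Figure D1:**
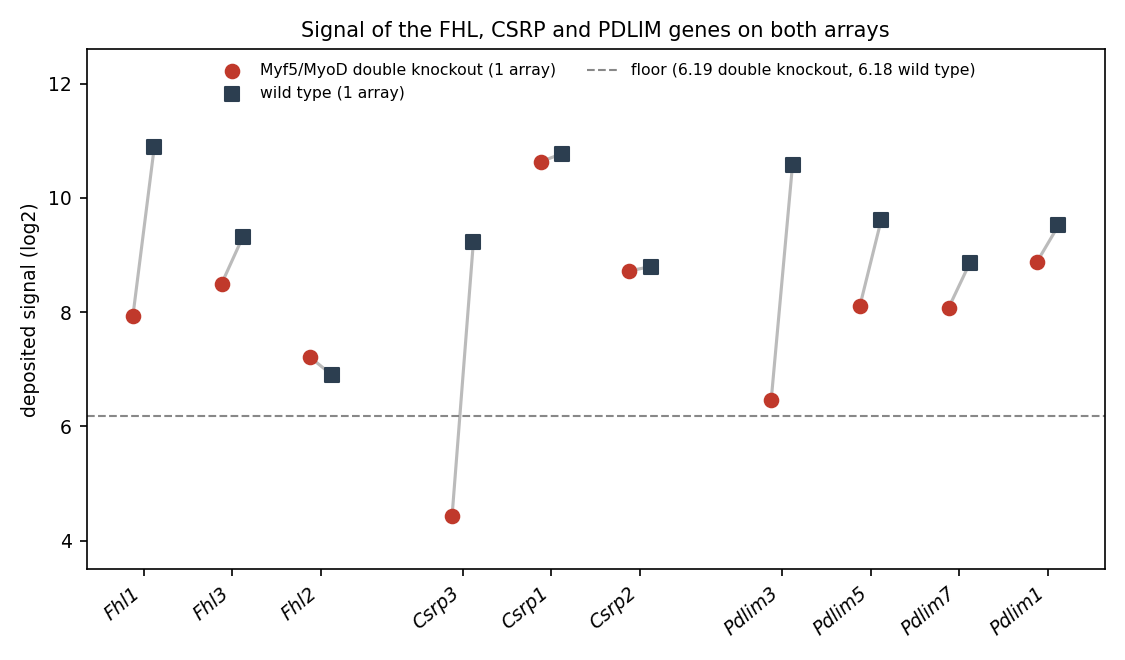
Deposited log2 signal of the 10 genes, grouped by family, on the DKO array (circles, left of each pair) and the WT array (squares, right), with the floor as a dashed line. Csrp3 at 4.44 is the single DKO value below the floor, and Pdlim3 at 6.47 is just above it; heights of different genes cannot be compared, since each probe set has its own brightness.

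Pdlim3 encodes ALP, the actinin-associated LIM protein of the Z-disc. Its signal was 6.47 in DKO and 10.58 in WT, a difference of -4.11 or 17.2-fold less in DKO. Ordered by this difference, Pdlim3 ranked 27 of 10393 genes from the lowest. Its DKO value lay 0.28 above the floor, so little of its wild-type signal was left above the dimmer probe sets of the array.

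Csrp3 encodes muscle LIM protein, which in striated muscle links the Z-disc to the nucleus and the cytoskeleton. Its signal was 4.44 in DKO and 9.22 in WT. The DKO value lay under the floor, so its difference of -3.04 is a bound, at least 8.21-fold less in DKO. The deposited values themselves were 27.6-fold apart.

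Fhl1, whose human counterpart is mutated in several inherited muscle diseases, gave 7.94 in DKO and 10.88 in WT. That is a difference of -2.94 or 7.69-fold less in DKO, rank 56 from the lowest. Unlike Pdlim3 and Csrp3, Fhl1 stayed 1.75 above the floor in DKO, with 13.0% of its wild-type signal. Fhl1 lies on chromosome X, and sex-linked genes were uneven between the arrays. The Y-linked gene Eif2s3y gave 6.55 in DKO and 2.38 in WT, Uty 6.20 in DKO and 2.43 in WT, and Xist, the RNA of the inactive X, 10.22 in DKO and 10.87 in WT. Their part in the Fhl1 value was not tested. The 322 measured genes of chromosome X had a median difference of 0.07 (-0.03 with the median of all genes set to 0). Of them, 17 (5.28%) were at least 2-fold lower in DKO, against 2.73% of all measured genes. As much higher were 0, against 0.510% of all. Fhl1 was the third lowest of the chromosome X genes.

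Fhl3, the FHL protein most abundant in skeletal muscle beside Fhl1, differed least among the muscle-restricted genes. Its signal was 8.50 in DKO and 9.32 in WT, 1.77-fold less in DKO (-0.82), which kept 56.6% of the wild-type signal and did not reach 2-fold. The muscle-restricted class was therefore uneven, with 3 of 4 genes at least 2-fold lower in DKO, a median of -2.99 and a span of -4.11 to -0.82. In bulk tissue, fewer cells of a type and less RNA per cell cannot be told apart.

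Among the broadly expressed genes, 1 of 6 was at least 2-fold lower in DKO and 0 were as much higher (median -0.39). The 1 was Pdlim5, which encodes ENH (Enigma homologue), a scaffold between protein kinase C and alpha-actinin that is also made in heart and skeletal muscle. Pdlim5 gave 8.11 in DKO and 9.61 in WT, a difference of -1.50 or 2.83-fold less in DKO. The Pdlim5 difference was lower than that of the muscle-restricted Fhl3, so the order of the genes did not follow the classes strictly.

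Pdlim7, or Enigma, a scaffold also studied as a promoter of bone formation under the name LIM mineralization protein, gave 8.07 in DKO and 8.86 in WT, 1.73-fold less in DKO (-0.79). Pdlim1, or CLP36, which places alpha-actinin on stress fibres, is the 1 member with more than a single probe set. The brighter gave 8.89 in DKO and 9.52 in WT, 1.55-fold less in DKO. The other gave 8.52 in DKO and 9.54 in WT, 2.03-fold less in DKO. Both probe sets of Pdlim1 were lower in DKO, but on either side of 2-fold, and their differences of -0.63 and -1.02 lay further apart than the SD of 0.23. All 4 PDLIM genes had less signal in DKO.

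Csrp1 and Csrp2 encode actin-binding partners of zyxin and alpha-actinin that are abundant in smooth muscle and mesenchyme. Csrp1 gave 10.63 in DKO and 10.77 in WT, a difference of -0.14. Csrp2 gave 8.72 in DKO and 8.80 in WT, a difference of -0.07. Both differences were smaller than the SD of 0.23 between probe sets. With the median of all genes set to 0, Csrp1 differed by -0.24, just beyond that SD, and Csrp2 by -0.17. These were still the smallest reductions among the 9 genes with less signal in DKO.

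Fhl2, a transcriptional co-regulator best known from heart and from bone-forming cells, gave 7.21 in DKO and 6.91 in WT, 1.23-fold more in DKO (0.30). It stayed positive with the median of all genes set to 0 (0.20), but was then smaller than the SD of 0.23 between probe sets. Of all measured genes, 82.9% had a difference as low as or lower than Fhl2. Its WT signal was only 0.73 above the floor, the nearest to it among the WT values of the 10 genes.

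**Figure D2:**
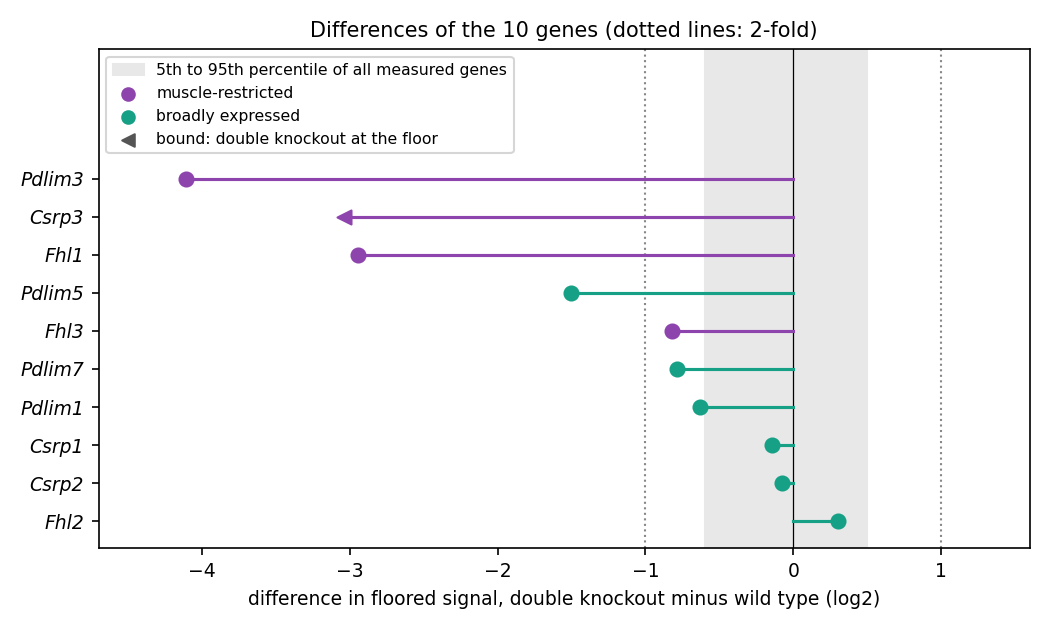
Difference of each of the 10 genes (DKO minus WT, log2 of the floored signal), ordered from lowest at the top, with the 5th to 95th percentile of all measured genes shaded (-0.59 to 0.50). The arrowhead of Csrp3 marks a bound; 7 genes lie below the shaded band and Csrp1, Csrp2 and Fhl2 inside it.

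Within each family, some paralogs had very different DKO-to-WT ratios. The 3 FHL genes spanned 3.24 log2 units, and the ratio of Fhl1 was 9.47-fold lower than that of Fhl2 and 4.35-fold lower than that of Fhl3. In the CSRP family the ratio of Csrp3 was at least 7.44-fold lower than that of Csrp1 and at least 7.80-fold lower than that of Csrp2, while those of Csrp1 and Csrp2 were 1.05-fold apart. In the PDLIM family the ratio of Pdlim3 was 11.1-fold lower than that of Pdlim1, 9.99-fold lower than that of Pdlim7 and 6.09-fold lower than that of Pdlim5. The median of the muscle-restricted class minus that of the broadly expressed class was -2.60 log2 units. This value depends on how genes such as Fhl2 and Pdlim5 were classed, and in part on the bound of Csrp3. It was -1.50 with the floor raised to the 75th percentile and -3.14 without any floor.

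**Figure D3:**
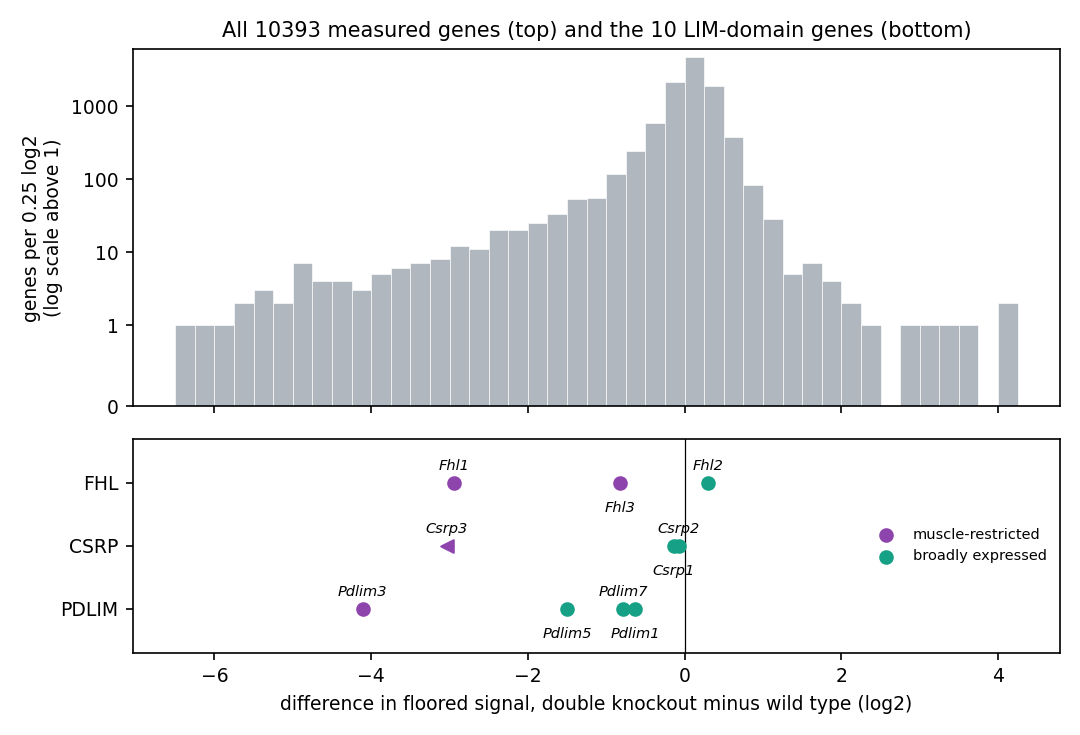
Number of measured genes in each 0.25 log2 step of the difference (top, logarithmic above 1) and the same difference for the FHL, CSRP and PDLIM genes, 1 row per family (bottom). In each family the lowest gene, Fhl1, Csrp3 or Pdlim3, lies furthest left, Pdlim5 at -1.50 lies between them and the central peak, and the other genes lie at -0.82 or above; the arrowhead of Csrp3 marks a bound.

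Close relatives outside the 10 also ranged from a large difference to hardly any. Of 8 listed FHL, CRIP and PDLIM relatives, 5 were measured, 1 was at least 2-fold lower in DKO, and none reached 2-fold more (median -0.53). The 1 was Ldb3, the Z-disc gene also called Cypher or ZASP, whose protein has the PDZ and LIM plan of the Enigma group. Ldb3 gave 5.11 in DKO and 10.39 in WT, at least 18.46-fold less in DKO. The small LIM proteins Crip1 and Crip2 were 1.65-fold and 1.44-fold lower in DKO, Pdlim4 was 1.17-fold lower, and Pdlim2 differed by 0.07, or -0.03 with the median of all genes set to 0. Fhl4, Fhl5 and Crip3 were below the floor on both arrays.

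Of 28 cytoskeletal LIM genes examined, 25 were measured and 3 were below the floor. Among the 25, 2 were at least 2-fold lower in DKO and 0 higher, with a median of 0.02, 12 negative and 13 positive, but a median of -0.08 with that of all genes set to 0 and -0.02 after quantile normalisation. Lmcd1, a LIM protein of striated muscle that restrains GATA6, gave 6.63 in DKO and 8.79 in WT, 4.49-fold less in DKO. Ablim3, an actin-binding LIM protein, was at least 2.35-fold lower (5.03 in DKO and 7.42 in WT). Next came Limch1, an activator of non-muscle myosin (1.65-fold lower), and the adhesion protein zyxin, Zyx, a binding partner of CSRP proteins (1.43-fold lower). Of 16 listed nuclear LIM genes, which encode LIM-homeodomain factors and LIM-only cofactors, 6 were measured, 9 were below the floor and Lmx1a is not analysed here. Of the 6, 0 were 2-fold apart in either direction, with a median of 0.27. Lmo4 was 1.51-fold higher in DKO, Isl1 1.27-fold higher, Lhx6, a jaw patterning factor, 1.23-fold higher, and Lhx2 at least 1.26-fold lower.

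Genes listed as partners of LIM-domain proteins, many of them sarcomeric, were examined next. Binding of each to the FHL, CSRP or PDLIM proteins was not checked. Of 22 listed partners, all measured, 14 were at least 2-fold lower in DKO and 0 higher, with a median of -2.54, and 12 of the 22 differences were bounds. The highest bounds, which do not rank the genes by their true difference, were those of the sarcomeric alpha-actinin Actn2 (4.80 in DKO and 11.13 in WT, at least 30.7-fold less in DKO), titin, Ttn (at least 28.5-fold less), the myosin-binding protein Mybpc1 (at least 22.6-fold less) and the Z-disc protein Myoz1 (at least 21.6-fold less). The other alpha-actinins, chosen after their values were seen, were not alike. Actn3, the fast-fibre isoform, gave 7.49 in DKO and 10.21 in WT, 6.59-fold less in DKO. The non-muscle isoforms Actn1 and Actn4 were 1.42-fold and 1.25-fold higher in DKO. The sarcomeric isoforms thus had less signal in DKO and the non-muscle isoforms slightly more, under each of the 3 scalings.

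**Figure D4:**
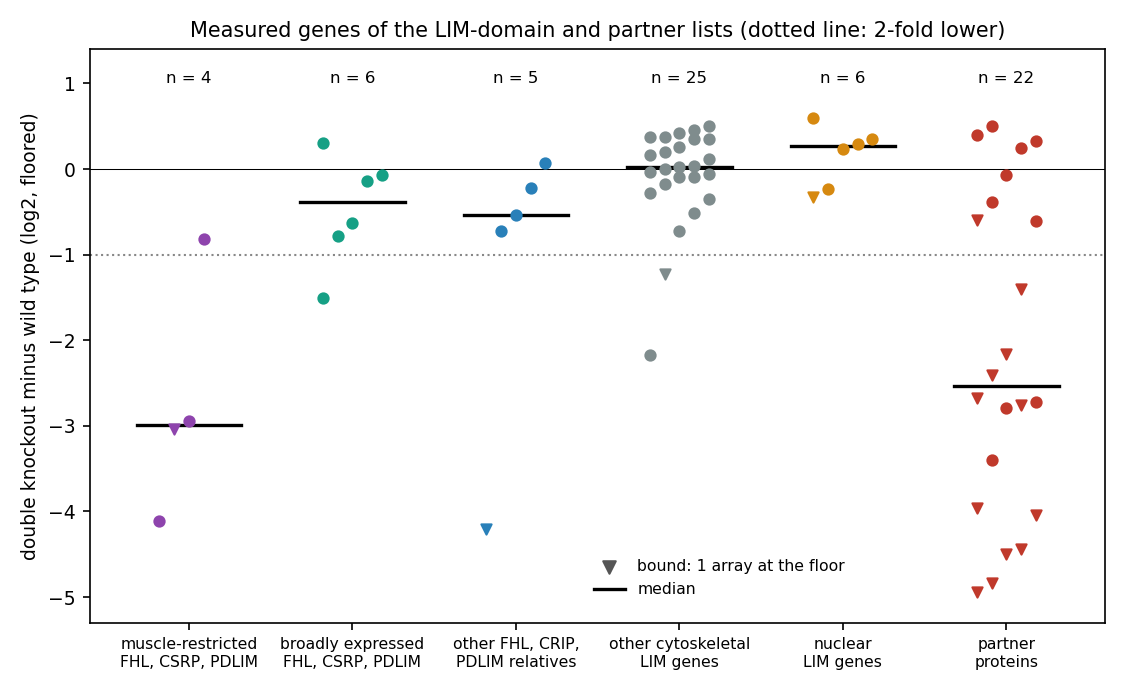
Difference (DKO minus WT, log2 of the floored signal) of each measured gene in 6 lists, with the median as a bar and downward triangles for bounds. The muscle-restricted genes and the partner proteins have the lowest medians (-2.99 and -2.54), 1 of the relatives, Ldb3, lies at a bound of -4.21, while the other cytoskeletal LIM genes have a median of 0.02 (-0.08 with the median of all genes set to 0).

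Markers of cell types that make these proteins were read from the same arrays. All 8 skeletal muscle markers were at least 2-fold lower in DKO, with a median of -5.22, and 1 of the 8, Des, was above the floor in DKO, against 8 in WT. Acta1 was at least 64.5-fold lower and Tnnt3 at least 56.3-fold lower, the highest bounds of the list, which do not order these genes by their true difference. Their summed linear signal was 317 in DKO and 20952 in WT. The Fhl1, Fhl3, Pdlim5, Pdlim7 and Pdlim1 signal in DKO stood beside skeletal muscle markers at or near the floor. The cells that gave this signal were not tested. Of 7 cardiac markers, 6 were below the floor on both arrays, and the remaining 1, Tnnt2, which fetal skeletal muscle also expresses, was at least 12.9-fold lower in DKO. Of 9 smooth muscle markers 8 were measured, 0 were 2-fold apart, and their median was -0.17, with a summed signal of 2415 in DKO and 3636 in WT. Acta2 (1.91-fold lower) and Actg2 (1.65-fold lower) differed most. Of 5 tendon markers 4 were measured, with a summed signal of 1093 in DKO and 2401 in WT, and 2 were at least 2-fold lower, Tnmd (5.64-fold) and Thbs4 (3.59-fold). Of any size, 3 tendon differences were negative and 1 was positive. The part of smooth muscle and tendon in the differences of the broadly expressed genes was not tested.

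Markers of the jaw were read to check the tissue label. Of 6 bone and tooth markers, 5 were above the floor on both arrays, with a median of 0.22, and Bglap is not analysed here. The largest differences were in Dspp (1.75-fold higher in DKO) and Sp7 (1.32-fold higher). Cartilage had 3 of 5 markers above the floor on both arrays (median 0.49), while Matn1 and Col9a1 were below it. Sox9 and Col2a1 were higher in DKO, and Acan was 1.25-fold lower. Endothelium had 4 of 4 (median 0.03, or -0.06 with that of all genes set to 0, with Tek and Kdr furthest from 0) and epithelium 4 of 4 (median 0.52, led by Epcam and Cdh1). All 5 salivary gland markers were at least 2-fold higher in DKO, led by Pip (17.4-fold) and Smgc (11.4-fold), with a summed signal of 13443 in DKO and 1313 in WT. The targeted genes gave 4.95 in DKO and 6.31 in WT for Myf5, and 6.49 in DKO and 7.14 in WT for Myod1. Both were lower in DKO, but neither reached 2-fold after the floor (-0.13 for Myf5, a bound, and -0.66 for Myod1). The WT value of Myf5 lay only 0.14 above the floor, and Myod1 stayed above the floor in DKO. The sources used here do not say where their probes lie relative to the deleted parts.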

How the data were processed

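Total RNA (6 µg, Trizol) from 1 DKO and 1 WT mandible sample was made into biotinylated cRNA for Affymetrix arrays, as the labels' protocols state. The deposited values are log2 signals per probe set, from 1.42 to 13.34 (DKO) and 1.42 to 13.35 (WT); the base of 2 was read from this range. The submitters' processing notes name MAS5; background correction, normalization and build are not given in the sources used here. The 2% trimmed means of the linear values had a ratio of 1.02, within the 5% allowed, so the values were used as deposited. If the authors equalised the arrays, that ratio says nothing of how alike the RNA samples were.

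Genes were named from GEO's platform annotation; all 10 symbols matched RefSeq. The floor was each array's median over probe sets with an annotated gene (50th percentile). The brightest probe set represented a gene. Differences, counts past 2-fold and list medians were computed with Python 3.11.15, pandas 2.3.3 and numpy 2.4.6, tested on simulated data; no test across genotypes was possible, and the number of arrays limits the precision. Alternatives were 2 other scalings, 3 other floors, no floor, the median over probe sets, and thresholds of 1.5-fold and 3-fold. The members, classes and lists were chosen with earlier results of these data known. Named genes are all members and measured relatives, and Myf5 and Myod1. They also include the 4 largest absolute differences in each other LIM or partner list, and the 2 largest in each marker list. The sex-linked genes, Actn1, Actn3, Actn4, Mylk and Acan were added after their values were seen. One listed LIM gene is not reported here.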

Additional observations from a re-analysis of the deposited data

How the results depend on the processing

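Every member kept its direction under the scalings, floors and probe-set rules that gave it a value; Fhl2 gave none when the floor was raised to the 75th percentile. The count of members at least 2-fold lower in DKO was 7 at 1.5-fold, and for the broadly expressed genes 3 at 1.5-fold and 0 at 3-fold. The muscle-restricted median was -3.52 both without any floor and when it was lowered to the 25th percentile, -3.36 when it was taken over all probe sets, and -2.13 at the 75th percentile. The difference between the class medians was -3.14, -3.14, -2.97 and -1.50 under the same settings, because the floor limits Csrp3 and Pdlim3, and the broadly expressed median was -0.63 at the 75th percentile. Csrp3 ranged from -4.79 to -1.45 and Pdlim3 from -4.21 to -2.80. Of the other cytoskeletal LIM genes, 1 of 13 measured was at least 2-fold lower at the 75th percentile. At the main floor, 1 of 25 was at least 3-fold lower. The count over all genes was 134 of 5131 measured (2.61%) at the 75th percentile and 431 of 19938 (2.16%) without any floor. With the main floor it was 531 of 10393 (5.11%) at 1.5-fold and 161 of 10393 (1.55%) at 3-fold. Setting the median of all genes to 0 gave 38 genes higher and 319 lower. The choice of the brighter Pdlim1 probe set kept that gene out of the count at 2-fold. No paired analysis was possible because each genotype has 1 array.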
